A study of Homo sapiens with 8 samples.

Results

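The data described here are the change in polyadenylated RNA between 9 and 12 h of Nutlin-3a in IMR90 cells, which are human lung fibroblasts. The 2 libraries of 12 h were compared with the 2 libraries of 9 h, 4 of the 8 libraries of the series. The members are all genes of the deposited table with a normalized count of at least 10 in at least 2 of the 8 libraries, which left 14074 of 18216 genes, so none was chosen by its change. A normalized count is a gene's read count after scaling of the libraries to a common depth.

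IMR90 cells at passage 28 were given DMSO, the solvent, or Nutlin-3a at 3 µg/mL for 6, 9 or 12 h, with 2 libraries in each of the 4 groups. All groups shared the medium with 10% serum, an atmosphere of 3% oxygen and seeding on the day before treatment, and the cells carried no transgene that the labels name. The labels give no time for the DMSO cultures and do not say whether the groups were started or harvested together, so time in Nutlin-3a and time in culture cannot be told apart between 9 and 12 h. They also do not say whether the 2 libraries of a group came from separate cultures. The p-values below therefore measure the spread between these libraries, which may be technical, and an exact permutation test of 2 libraries against 2 cannot go below p = 0.333.

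Nutlin-3a binds MDM2, the ubiquitin ligase that holds the tumour suppressor p53 at a low level, and frees p53 from it without damaging DNA. p53 then switches on its own targets, among them MDM2 itself and CDKN1A, whose protein p21 inhibits cyclin-dependent kinases. With those kinases inhibited, retinoblastoma-family proteins stay unphosphorylated, E2F sites of DNA replication genes are held off, and the DREAM complex sits on the CHR element of genes for mitosis and silences them.

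The libraries held 21.9 to 33.6 M reads (M, mega) assigned to genes, of which the 9 h libraries held 27.7 and 30.02 M and those of 12 h 33.6 and 26.3 M, so that 3 reads were worth 2.46 to 3.75 normalized counts. Over 11461 genes with a mean of at least 50, the SD of the log2 difference between the 2 libraries was 0.119 at 9 h and 0.118 at 12 h, against 0.129 at 6 h and 0.174 in DMSO. Summed fibroblast markers came to 1624986 and 1630129 normalized counts at 9 h and 1670669 and 1703370 at 12 h. Of the markers of other cell types in the table, 4 of 7 leucocyte genes (PTPRC and CD14 among them), 4 of 13 epithelial genes (CDH1 among them) and 3 of 12 endothelial genes (CDH5 among them) were under 10 in all 8 libraries. Summed epithelial markers were 5515 and 5521 at 9 h and 5528 and 5559.6 at 12 h, with KRT7 and KRT19 called higher (both calls lost without any single library of 9 or 12 h) and KRT18 called lower of 9 tested. Summed endothelial markers were 8889 and 8947 at 9 h and 8028 and 8459 at 12 h, with FLT1 called lower of 9 tested and a median log2 change of -0.17. Their part in the changes below was not tested. In RNA from whole cultures, fewer cells of a kind and less of an RNA per cell cannot be told apart.

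Between 9 and 12 h, the genes of the cell division cycle went on falling. Of 111 p53 targets, which Nutlin-3a had raised by 6 h in large part, 7 were called (6.31%), beside 4.0% of all genes. A further set of genes turned back: some that had risen by 6 h fell to or below their DMSO level by 12 h, and some that had fallen by 6 h rose to or above it. The DMSO and 12 h libraries also chose these genes, so their place against DMSO is a description. With limma and Benjamini-Hochberg adjustment over all 14074 genes at a threshold of 0.05, 563 genes were called, which is 4.0% of those tested. Of these, 152 rose (1.08%) and 411 fell (2.92%), and for all 563 the 2 libraries of 12 h lay on one side of the 2 libraries of 9 h, as they did for 49.8% of all genes tested. At an unadjusted p under 0.05 stood 794 genes that were higher and 1279 that were lower.

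The changes were small. The median called increase was 0.32 and the median called decrease was -0.38 on the log2 scale, 8 genes rose and 92 fell by at least 1.5-fold, and 2 changed by at least 2-fold. Over all genes tested the median change was -0.01, and 52.4% of the changes were negative. Counts of calls moved with the libraries used: without either DMSO library, 438 to 446 genes rose and 819 to 825 fell. Without any single library of 9 h or 12 h, which leaves that group 1 sample whose spread is taken from the other groups, 42 to 58 rose and 213 to 237 fell.

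**Figure D1:**
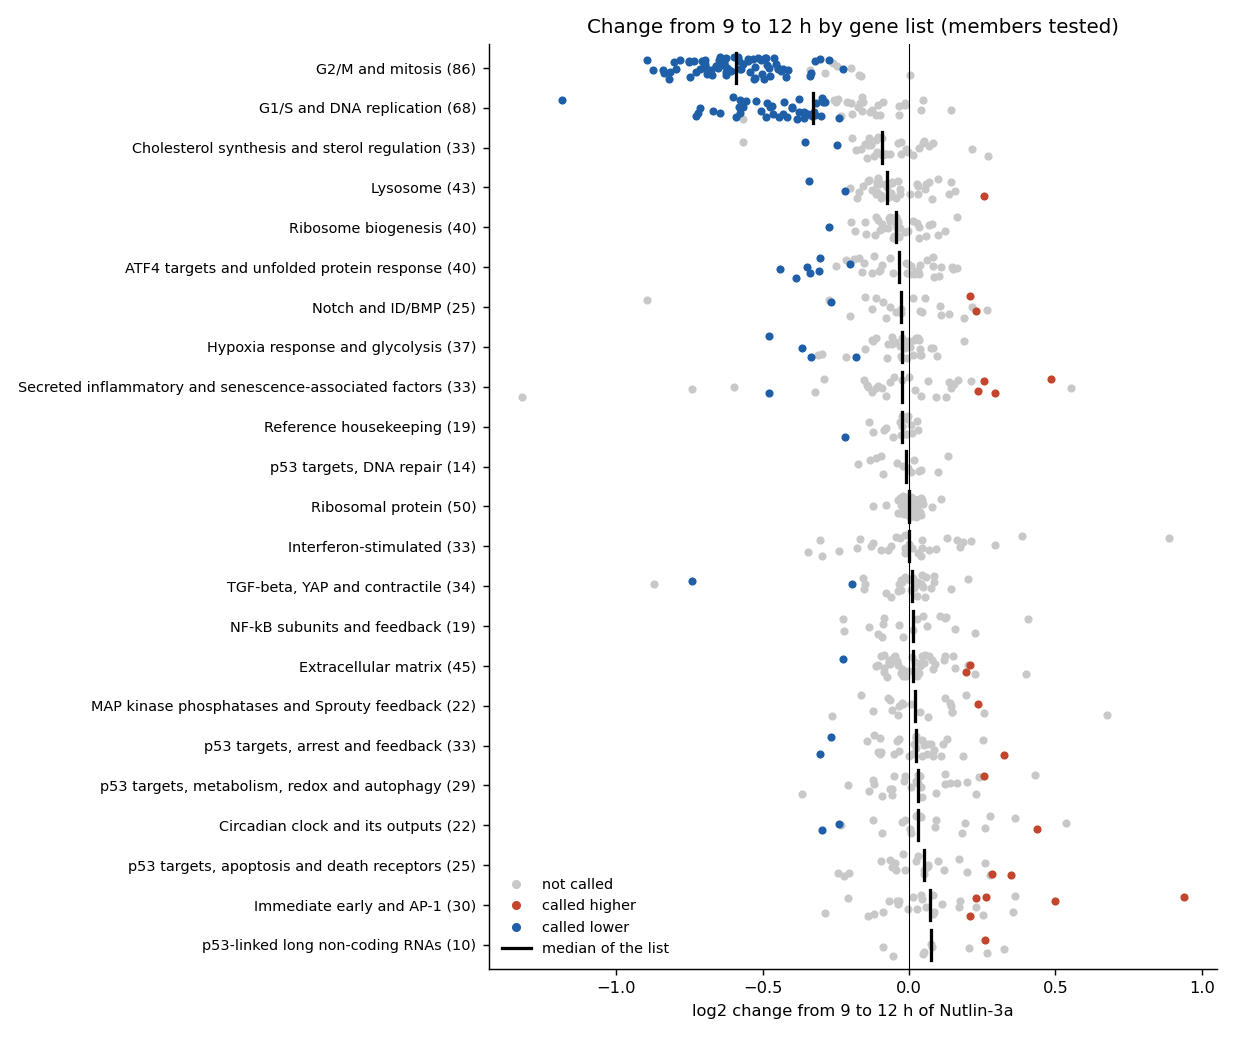
Log2 change from 9 to 12 h (x axis) of each tested member of 23 gene lists (y axis, members tested in brackets), with called members in colour and the list's median as a black bar. The G2/M and G1/S lists stand to the left with medians of -0.59 and -0.33, and the other medians lie between -0.09 and 0.08.

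Genes for mitosis had more calls than any other list. Of 86 tested genes of the G2 phase and mitosis, 78 fell and 0 rose in limma from 9 to 12 h, with a median change of -0.59 against -0.01 over all genes. edgeR on the reads recovered from the table called 77 lower and 0 higher, DESeq2 76 and 0, and at an unadjusted p under 0.05 limma had 85 lower and 0 higher. The count stayed between 73 and 83 when any library was left out and was 60 without the intensity trend of limma's variance.

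MKI67, whose protein coats mitotic chromosomes and marks dividing cells, had 14630.0 and 13173 normalized counts in DMSO, 7686 and 7679 at 6 h, 4531 and 4150.1 at 9 h and 2449 and 2392 at 12 h. The libraries of each time lay apart from those of the time before, and the level fell at every step. From 9 to 12 h the log2 change of MKI67 was -0.84 ± 0.054 (SE, adjusted p = 1.6e-08 in limma, 2 libraries a time). TOP2A, the topoisomerase that untangles sister chromatids, went from 5987 and 6196 to 3762 and 3752 normalized counts, a log2 change of -0.70 (adjusted p = 1.6e-08). At 12 h the level of MKI67 stood -2.52 on the log2 scale from DMSO and that of TOP2A -1.88.

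**Figure D2:**
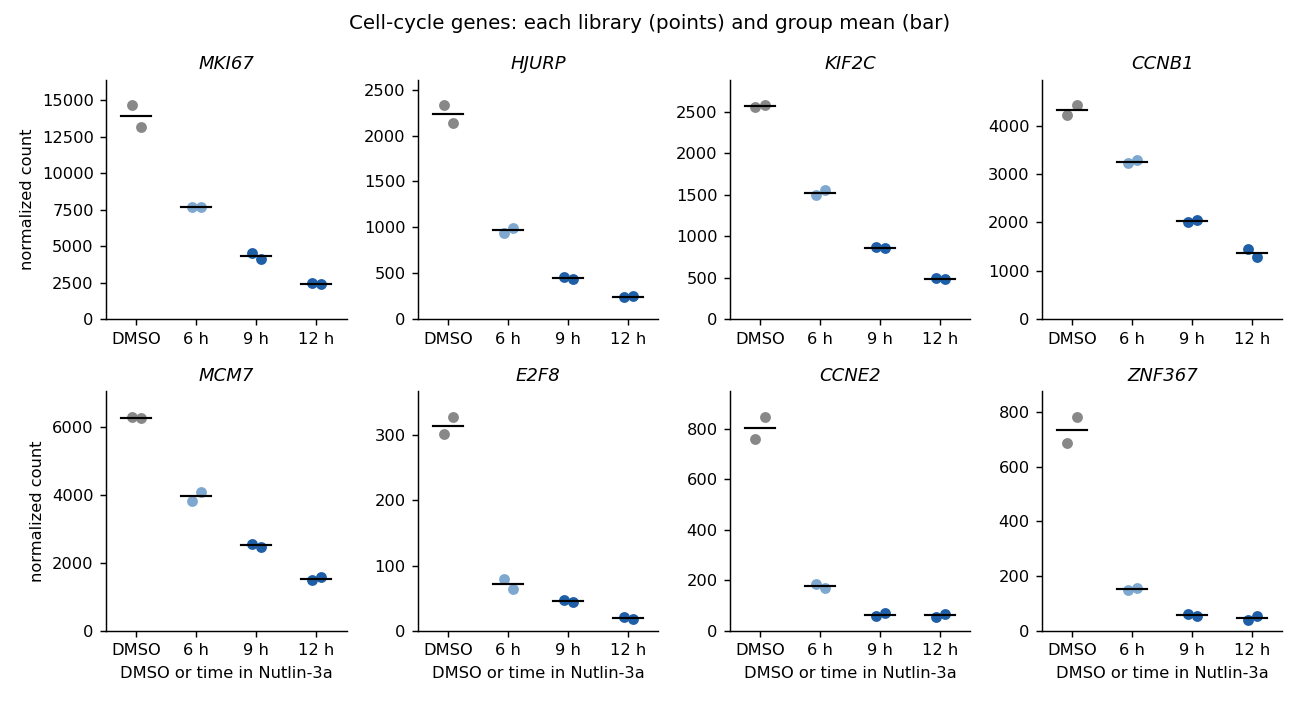
Normalized count (y axis, from 0) of 8 cell-cycle genes in each library (points) and the group mean (bar), in DMSO and after 6, 9 and 12 h of Nutlin-3a (x axis). MKI67, HJURP, KIF2C, CCNB1, MCM7 and E2F8 were lower in both 12 h libraries than in both 9 h libraries, while the 9 and 12 h libraries of CCNE2 and ZNF367 overlapped.

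By role, the genes that build and move chromosomes were nearly all called lower. The roles overlap the lists but also hold genes outside them, SKA1 among them. All 17 tested genes of the centromere and kinetochore, the structure that ties a chromosome to the spindle, were called lower, with a median of -0.67. Among them CENPA, the histone H3 variant that marks the centromere, went from 183 and 165 to 94.9 and 91.6 normalized counts (log2 change -0.89, adjusted p = 1.26e-05). HJURP, the chaperone that deposits CENPA, went from 461 and 437 to 241 and 248 (log2 change -0.88, adjusted p = 1.33e-07). Neither gene's 9 and 12 h libraries overlapped, and the partner pair changed by nearly the same amount. SKA1, which couples kinetochores to microtubule ends, changed by -0.84 and CDCA8, a subunit of the chromosomal passenger complex, by -0.84, and INCENP, the scaffold of that complex, changed least of the 17, by -0.27.

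All 11 kinesin motors of mitosis were called lower, from -0.33 for KIF18A to -0.82 for KIF2C, the depolymerase that corrects wrong attachments. KIF2C had 871 and 854 normalized counts at 9 h and 497 and 481 at 12 h, with an adjusted p of 3.88e-08. All 11 genes for condensins, topoisomerase and chromosome structure and all 8 for cytokinesis were also called lower, with medians of -0.49 and -0.57. KIF20A, a kinesin of the cleavage furrow, changed by -0.75, CEP55, which organizes the final cut between daughter cells, by -0.69, and PRC1, which bundles the microtubules between them, by -0.62.

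Of 12 mitotic kinases 11 fell, with a median of -0.62. AURKB, the kinase of the passenger complex, changed by -0.80, BUB1, a kinase of the spindle checkpoint, by -0.72 and PLK1, which drives entry into mitosis, by -0.65. PLK1 had 1080.4 and 1015 normalized counts at 9 h and 672 and 666 at 12 h. Of 12 mitotic cyclins and regulators of CDK1, 9 fell, with a median of -0.56. CCNB1, the cyclin B1 that activates CDK1, went from 2016 and 2056 to 1446 and 1286 (log2 change -0.58, adjusted p = 1.16e-06), and CDK1 itself changed by -0.61. The phosphatase gene CDC25C, which switches CDK1 on, changed by -0.82. The 3 members of this role that were not called were WEE1, the kinase that holds CDK1 off, at 0.003, and the CDK-binding subunits CKS1B at -0.26 and CKS2 at -0.25.

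Transcription factors of the late cell cycle were called less evenly, with 4 of 11 lower and a median of -0.17. MYBL2, the B-MYB factor that binds the core of DREAM in place of its repressors, changed by -0.68, and FOXM1, its partner at mitotic genes, went from 2176 and 1943 to 1555 and 1448 (log2 change -0.45). LIN9, a core subunit shared by DREAM and the B-MYB complex, and RBL1, the p107 protein, also fell. RBL2, the p130 protein of DREAM, had 1315 and 1264 at 9 h and 1404 and 1313 at 12 h, and its libraries overlapped. Role members named beyond those with the smallest p of each list were chosen after their values were seen.

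The change from 6 to 9 h shares the 9 h libraries with the change from 9 to 12 h and is given beside it as a description. From 6 to 9 h, 1199 genes rose (8.52% of those tested) and 1393 fell (9.90%), and of the 86 genes for mitosis 83 fell, with a median of -0.67. For MKI67 the 2 steps were -0.82 and -0.84, and for KIF2C -0.82 and -0.82. The difference between the 2 steps was tested as a contrast in the same limma fit. It passed the threshold for 3 of the 86 genes, beside 0.902% of all genes tested. All 3 had a smaller fall in the later step, and none passed without the intensity trend of limma's variance. Among them was LMNB1, the lamin B1 of the nuclear envelope, with -1.09 from 6 to 9 h and -0.51 from 9 to 12 h (adjusted p of the difference 0.0147).

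The element on which DREAM is known to act stands in the promoters of many genes for mitosis. Printed here are the 4 called members with the smallest p that hold it together with a CCAAT box within the 150 bases before the transcription start. These bases are from RefSeq on GRCh38.p14, read 5′ to 3′ on the gene's own strand, with the CHR motif TTTGAA and the CCAAT box of NF-Y in capitals in either orientation.
MKI67: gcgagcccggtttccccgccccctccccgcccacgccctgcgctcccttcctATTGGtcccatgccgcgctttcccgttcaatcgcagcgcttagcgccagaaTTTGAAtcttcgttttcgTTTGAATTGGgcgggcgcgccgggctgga
CEP55: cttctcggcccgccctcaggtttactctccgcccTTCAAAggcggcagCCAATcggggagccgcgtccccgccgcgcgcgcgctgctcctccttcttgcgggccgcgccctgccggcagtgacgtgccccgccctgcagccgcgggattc
PRC1: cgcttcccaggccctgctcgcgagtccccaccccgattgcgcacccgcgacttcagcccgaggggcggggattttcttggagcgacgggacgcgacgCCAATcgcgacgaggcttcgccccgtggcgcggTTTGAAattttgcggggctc
HJURP: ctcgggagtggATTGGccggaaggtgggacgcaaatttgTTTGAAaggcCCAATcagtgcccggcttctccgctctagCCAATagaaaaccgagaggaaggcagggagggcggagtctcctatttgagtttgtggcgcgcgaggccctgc
In MKI67, at chr10:128126424-128126573 on the minus strand, a CHR motif runs into the reverse form of a CCAAT box, and the upstream matches of the 2 motifs lie at -47 and -98 from the start. In CEP55, at chr10:93496462-93496611 on the plus strand, the CHR motif is at -116 and the CCAAT box at -102. In PRC1, at chr15:90994536-90994685 on the minus strand, they are at -20 and -53, and in HJURP, at chr2:233854536-233854685 on the minus strand, the most upstream of each are at -111 and -139.

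Over the whole list, 72 of the 86 genes had a promoter in the table of 250 bases before to 50 after the start. TTTGAA on either strand was in 48 of them (66.7%) and CCAAT in 52 (72.2%), against 15.4% and 35.7% of all 27305 promoters of the table. Among the 411 genes that fell, 349 had a promoter, and TTTGAA was in 100 (28.7%) and CCAAT in 177 (50.7%). Fallers in neither cell-cycle list also held TTTGAA in 56 of 249 promoters (22.5%). Within the mitosis list, 43 of the 48 members with TTTGAA were called lower with a median of -0.62, and 23 of the 24 without it with a median of -0.55. A match of these letters is a description and does not show that a protein was bound. The table includes genes not tested here. The same shares are void for the genes that rose and for the genes tested as a whole, of which 78.9% and 78.5% had a promoter, under a minimum of 80%.

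Genes of the G1/S transition and of DNA replication also fell, by a smaller amount. Of 68 tested, 41 fell and 0 rose in limma, with a median of -0.33; edgeR called 36 lower and 0 higher, DESeq2 32 lower and 1 higher, and at an unadjusted p under 0.05 limma had 52 lower and 1 higher. The count of fallers was 28 to 46 when any library was left out, 28 without replicate 1 of 9 h, and 14 without the intensity trend. At 12 h this list stood at a median of -2.05 against DMSO and the list for mitosis at -1.98, having been at -1.05 and -0.72 at 6 h.

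Among the roles for replication, the helicase that unwinds origins and its loaders had the most calls, with 15 of 16 genes lower and a median of -0.48. MCM7, a subunit of the helicase ring, had 6303 and 6269.6 normalized counts in DMSO, 2562 and 2484 at 9 h and 1500.2 and 1579.6 at 12 h. The 12 h libraries lay below the 9 h libraries, a log2 change of -0.71 ± 0.051 (SE, adjusted p = 3.88e-08 in limma). MCM2, another ring subunit, changed by -0.47 (adjusted p = 3.8e-05) and CDT1, which loads the ring, by -0.49. ORC1, a subunit of the origin recognition complex, was the member not called, with 132 and 128 at 9 h and 93.3 and 129 at 12 h, where the libraries overlapped.

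Polymerases and the clamp were more mixed, with 9 of 16 lower and a median of -0.30. FEN1, which trims Okazaki fragments, changed by -0.43, whereas PCNA, the sliding clamp and also a p53 target, was at 3182 and 3381 at 9 h and 2942 and 3123 at 12 h (log2 change -0.11, adjusted p = 0.321). For nucleotide supply 3 of 6 fell: RRM2, the small subunit of ribonucleotide reductase, went from 3190.4 and 3287 to 2124 and 2216 (log2 change -0.58, adjusted p = 1.33e-07). Thymidylate synthase, TYMS, was at 563 and 586 at 9 h and 540.2 and 583 at 12 h, overlapping between the times. Of 9 homologous recombination genes, some of them outside the G1/S list, 8 fell with a median of -0.53, among them BRCA1 at -0.57, BRCA2 at -0.58 and the nuclease EXO1 at -0.73.

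The promoters of 3 replication genes with an E2F site show the other class of element, again as the 150 bases before the start on GRCh38.p14 from RefSeq, with TTCCCGCC in either orientation in capitals. They were taken by smallest p among called members of the G1/S list that hold TTCCCGCC in these bases. The search did not cover every chromosome.
MCM3: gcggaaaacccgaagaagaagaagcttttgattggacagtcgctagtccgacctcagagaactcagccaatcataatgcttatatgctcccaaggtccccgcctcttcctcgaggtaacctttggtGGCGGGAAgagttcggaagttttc
GINS2: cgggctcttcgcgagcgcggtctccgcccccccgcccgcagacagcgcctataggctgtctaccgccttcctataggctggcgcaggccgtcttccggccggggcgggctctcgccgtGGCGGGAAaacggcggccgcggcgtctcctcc
CDT1: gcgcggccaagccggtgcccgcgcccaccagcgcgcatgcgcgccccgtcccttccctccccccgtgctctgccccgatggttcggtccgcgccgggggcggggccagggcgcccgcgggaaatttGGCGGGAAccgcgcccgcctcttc
They lie at chr6:52284743-52284892 on the minus strand, chr16:85688955-85689104 on the minus strand and chr16:88803639-88803788 on the plus strand, with the motif at -24, -32 and -24 from the start. From 9 to 12 h MCM3 changed by -0.40, GINS2, a subunit of the helicase's GINS partner, by -0.59 and CDT1 by -0.49. This motif was in 3.18% of all 27305 promoters of the table; its share in the G1/S list is void, since 77.9% of the members had a promoter.

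Of 5 activating and atypical E2F factors 3 were called lower, beside 2.92% of all genes tested, and E2F2 and E2F3 were not called. E2F8, an atypical repressor E2F, had 301 and 328 normalized counts in DMSO, 78.8 and 63.4 at 6 h, 47.8 and 43.8 at 9 h and 20.5 and 18.7 at 12 h. Both 12 h libraries were at less than both 9 h libraries, and E2F8 had the largest called decrease among genes with a mean of at least 50, -1.18 ± 0.17 (SE, adjusted p = 0.000172 in limma). That value rests on 48 and 48 reads at 9 h and 25 and 18 reads at 12 h. E2F1, the activator, changed by -0.72 (adjusted p = 3e-06). E2F7, the other atypical repressor and a p53 target, had risen from 2472 and 2599 to 3908 and 3611 at 6 h and fell from 2619.9 and 2463 to 2122 and 2015 (log2 change -0.30).

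For some replication genes with a deep early fall the later step did not pass the threshold. CCNE2, the cyclin E2 that partners CDK2, had 758 and 845 normalized counts in DMSO, 186 and 169 at 6 h, 57.8 and 68.5 at 9 h and 55.7 and 67.6 at 12 h. The 9 and 12 h libraries overlapped at about the same level, well over the 2.46 to 3.75 that 3 reads are worth. The step from 6 to 9 h was -1.48 and the step from 9 to 12 h -0.04, a difference of 1.45 ± 0.23 (SE, adjusted p = 0.00383 in limma). FAM111B, a replication-linked protease, had steps of -1.16 and -0.25 (adjusted p of the difference 0.0376), and ZNF367, a zinc finger gene, -1.42 and -0.29 (adjusted p 0.0401). The difference was lost for CCNE2 without either 9 h library, and for ZNF367 in edgeR and DESeq2 and without any of 5 libraries, namely both of 6 h, both of 9 h and replicate 2 of 12 h. Of the 5 cyclins of G1, 0 passed the threshold from 9 to 12 h in limma (2 were higher at an unadjusted p under 0.05, edgeR called 0 and DESeq2 called 1 higher); CCND1, cyclin D1, was at 51844 and 49258 at 9 h and 55327 and 56420.4 at 12 h, and CCND2, cyclin D2, at 801 and 813 at 9 h and 929.7 and 889.7 at 12 h.

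The 2 cell-cycle lists held 119 of the 411 fallers and left 292. Some of these 292 also have a known role in division. DEPDC1B, which acts on adhesion before mitosis, changed by -0.88, KNL1, the kinetochore scaffold, by -0.72, SPAG5, a spindle protein, by -0.65 and EZH2, the H3K27 methyltransferase, by -0.36. The libraries of DEPDC1B were 145 and 188 at 9 h and 90.0 and 88.4 at 12 h, without overlap. KNL1, SPAG5 and EZH2 were named after their values were seen.

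The change at 6 h against DMSO shares no library with the change from 9 to 12 h, so the calls can be set against each other, although both use the same estimate of the spread. At 6 h, 2263 genes had risen (16.1% of those tested) and 2897 had fallen (20.6%). Of the 2897 early fallers, 256 fell again from 9 to 12 h (8.84%) and 90 rose (3.11%). Of the 2263 early risers, 29 rose again (1.28%) and 115 fell (5.08%), whereas of the 8914 genes not called at 6 h 33 rose (0.37%) and 40 fell (0.45%). Seen from the later step, 62.3% of the 411 fallers had fallen and 28.0% had risen at 6 h, and 59.2% of the 152 risers had fallen and 19.1% had risen.

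Of 190 genes that had fallen at least 2-fold by 6 h, 59 fell again (31.1%), and 36 of these 59 were in the cell-cycle lists. The 235 early risers of at least 2-fold gave 2 further rises and 14 falls. When any library was left out, the 256 became 163 to 393, the 115 became 31 to 269, the 90 became 33 to 189 and the 29 became 6 to 92. The lowest counts came without a 9 h or 12 h library and the highest without a DMSO library.

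**Figure D3:**
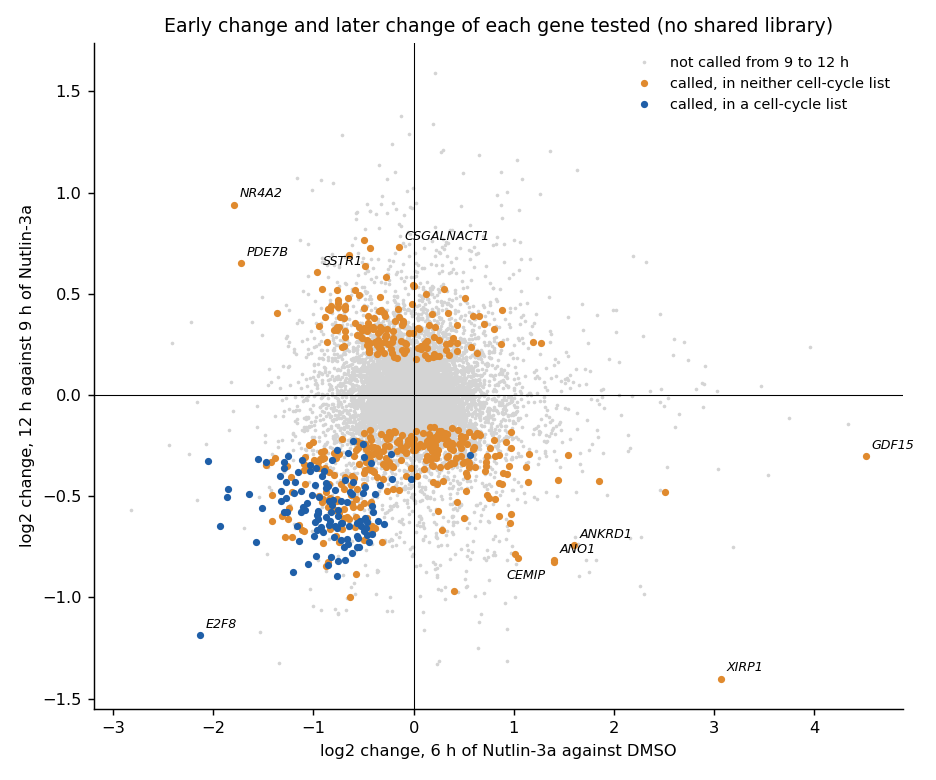
Log2 change at 6 h of Nutlin-3a against DMSO (x axis) and from 9 to 12 h (y axis) for each of the 14074 genes, with called genes of the later step in colour. Called cell-cycle genes lie mostly at the lower left (117 of 119 had fallen by 6 h), CEMIP, ANO1 and ANKRD1 rose early and fell late at the lower right, and NR4A2 and PDE7B fell early and rose late at the upper left.

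The 256 genes that fell by 6 h and again from 9 to 12 h had medians against DMSO of -0.75 at 6 h, -1.30 at 9 h and -1.85 at 12 h. All 256 were called lower than DMSO at 12 h. The DMSO and 12 h libraries also chose these genes, so that count largely follows from the choice and is no further test. In the cell-cycle lists were 117 of the 256, and 139 were not. The 29 genes that rose at both ends had medians of 0.39, 0.66 and 0.91 at the same times. Of these, 28 were called higher than DMSO at 12 h, with the same limit. Beside p53 targets these 29 held PAPPA, the protease that frees insulin-like growth factors from their binding proteins, which went from 897 and 812 normalized counts in DMSO to 1326 and 1242 at 6 h, 2382 and 2224 at 9 h and 3081 and 2949 at 12 h (log2 change from 9 to 12 h 0.39, adjusted p = 0.000396). They also held COL7A1, the collagen of anchoring fibrils, from 5936 and 5719.6 to 6710.3 and 6634 (log2 change 0.20, lost without any single library of 9 or 12 h). PAPPA was named after its values were seen.

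The 115 genes that rose by 6 h and fell from 9 to 12 h had medians against DMSO of 0.47 at 6 h, 0.21 at 9 h and -0.10 at 12 h. At 12 h, 16 of them were called higher than DMSO, 40 lower and 59 neither. These counts reuse the DMSO and 12 h libraries that chose the genes, so they are a description and not a further test. CEMIP, which breaks down hyaluronan, had 1634 and 1676 normalized counts in DMSO, 4333 and 4405 at 6 h, 2404 and 2209 at 9 h and 1294 and 1304 at 12 h. It was highest at 6 h and lowest at 12 h, where both libraries were under both DMSO libraries. From 9 to 12 h its log2 change was -0.83 ± 0.054 (SE, adjusted p = 1.6e-08 in limma).

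ANO1, a calcium-activated chloride channel, followed the same course, with 319 and 348 in DMSO, 849 and 913 at 6 h, 420.2 and 414 at 9 h and 223 and 252 at 12 h (log2 change from 9 to 12 h -0.81, adjusted p = 3.2e-06). ANKRD1, a target of YAP in stretched and spreading cells, had 677 and 696 in DMSO, 2004 and 2164 at 6 h, 985 and 903 at 9 h and 526 and 605 at 12 h (log2 change -0.74, adjusted p = 1.27e-06). For both, the 6 h libraries were the highest and the 12 h libraries the lowest of the 4 groups. PLAT, the tissue plasminogen activator, went from 10274 and 9988 to 7770.2 and 7708, within the DMSO range of 8026 and 7601, and was named after its values were seen. The largest called decrease of any gene was that of XIRP1, an actin-binding muscle gene, at -1.40 (adjusted p = 0.0262). It rests on 16 and 20 reads at 9 h and 8 and 5 at 12 h, was not called by edgeR or DESeq2, and lost its call without any single library of the 6, 9 or 12 h groups.

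Transporters and enzymes of amino acid supply were among the 115. Of 40 tested ATF4 targets and genes of the unfolded protein response, 7 fell and 0 rose in limma, beside 2.92% and 1.08% of all genes tested. At an unadjusted p under 0.05, 3 of the 40 were higher, and edgeR and DESeq2 called 0 higher and 7 lower each. The list median was -0.03. The 7 were SLC7A5, PSAT1, SLC3A2, MTHFD2, SHMT2, VLDLR and ASNS; the count was 5 to 12 when any library was left out, with 5 without replicate 1 of 9 h and 12 without replicate 1 of DMSO, and 0 without the intensity trend.

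SLC7A5, the light chain of the large neutral amino acid transporter, had 8388 and 7767 normalized counts in DMSO, 14966 and 14776 at 6 h, 9762 and 8927 at 9 h and 7106 and 6650.4 at 12 h. SLC3A2, its heavy chain, had 4269 and 4564 in DMSO, 6389 and 6606 at 6 h, 4786 and 4722 at 9 h and 3809.8 and 3712 at 12 h. Both partners peaked at 6 h among the times measured and had their lowest libraries at 12 h, with log2 changes from 9 to 12 h of -0.44 (adjusted p = 1.26e-05) and -0.34 (adjusted p = 0.000111). PSAT1, of serine synthesis, changed by -0.39, and the mitochondrial folate enzymes MTHFD2 and SHMT2 by -0.35 and -0.31. ATF4 mRNA was at 3903 and 3977 at 9 h and 4070.1 and 3984 at 12 h (log2 change 0.03, adjusted p = 0.884), and DDIT3, the CHOP gene of the stress arm, at 485 and 513 at 9 h and 446 and 431 at 12 h (adjusted p = 0.25). Of 10 amino acid transporters 5 fell and SLC38A2, the regulated small neutral transporter, rose by 0.26.

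**Figure D4:**
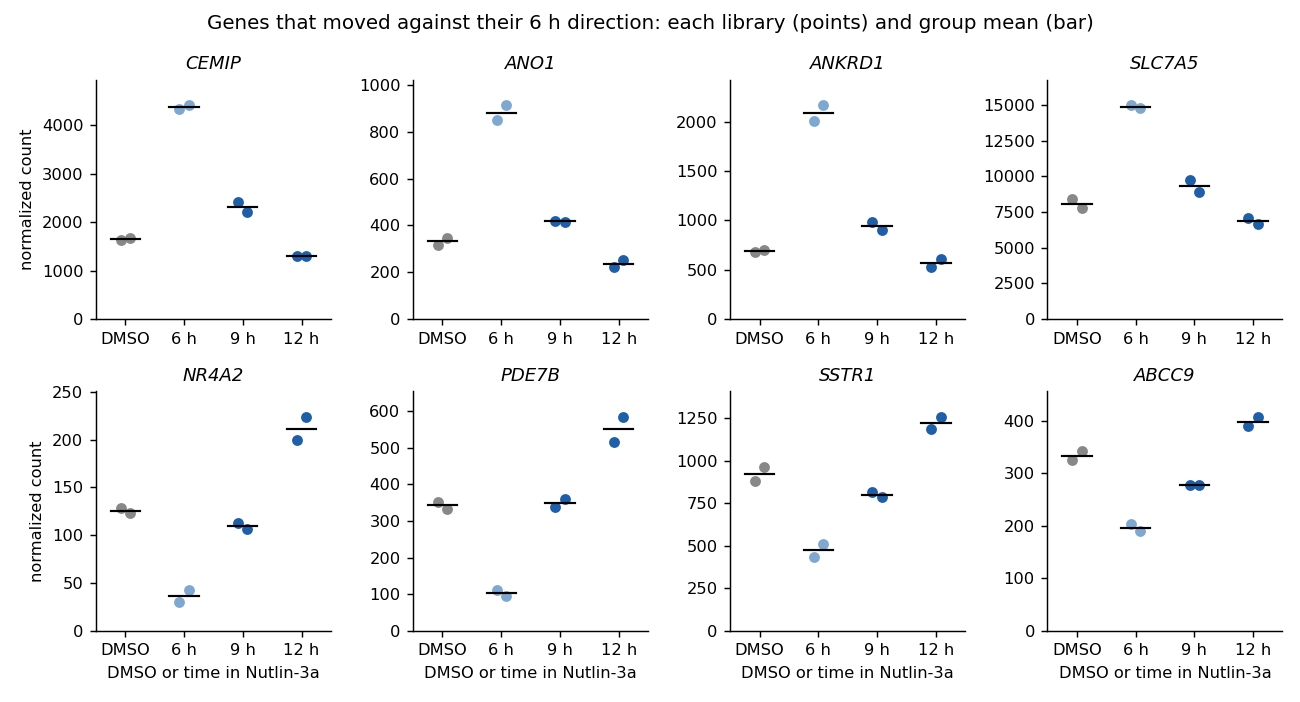
Normalized count (y axis, from 0) in each library (points) and group mean (bar) of 4 genes that rose by 6 h and fell from 9 to 12 h (top) and 4 that fell by 6 h and rose from 9 to 12 h (bottom), in DMSO and at 6, 9 and 12 h of Nutlin-3a (x axis). The 6 h libraries are the highest in the top panels and the lowest in the bottom panels.

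The 90 genes with the reverse course had medians against DMSO of -0.46 at 6 h, -0.16 at 9 h and 0.19 at 12 h. At 12 h, 46 were called higher than DMSO, 7 lower and 37 neither, again a description, since the DMSO and 12 h libraries chose the genes. NR4A2, a nuclear receptor gene that growth and stress signals induce within minutes, had 128 and 124 normalized counts in DMSO, 30.0 and 42.3 at 6 h, 113 and 107 at 9 h and 199.7 and 224 at 12 h. It dipped at 6 h, was near its DMSO level at 9 h and was above every other group at 12 h. Its log2 change from 9 to 12 h was 0.94 ± 0.16 (SE, adjusted p = 0.000746 in limma), the largest called increase. Of its relatives, NR4A1 rose from 162 and 155 to 234 and 215 (log2 change 0.50, not called by DESeq2 or without any single library of 9 or 12 h), and NR4A3 was at 53.8 and 64.9 at 9 h and 69.6 and 83.2 at 12 h, with an adjusted p of 0.546.

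PDE7B, a cyclic AMP phosphodiesterase, had 353 and 332 in DMSO, 110.1 and 96.1 at 6 h, 338 and 361 at 9 h and 516 and 584 at 12 h (log2 change from 9 to 12 h 0.65, adjusted p = 0.000266). SSTR1, a somatostatin receptor, had 878 and 961 in DMSO, 435 and 508 at 6 h, 816 and 786 at 9 h and 1184 and 1256 at 12 h (log2 change 0.61, adjusted p = 2.95e-05). Both ended above DMSO, with 12 h libraries that overlapped no other group. Among the 90 reversed genes with the smallest p, TRPA1, an irritant-gated cation channel, rose from 2746 and 2873 to 3868 and 3747 (log2 change 0.44, adjusted p = 5.8e-06) and SLC4A4, a bicarbonate cotransporter, from 2524 and 2286 to 3188 and 3257 (log2 change 0.42), both named after their values were seen. GALNT15, a glycosyltransferase of mucin-type chains, rose from 264 and 308 to 419 and 470.3. NTNG1, an axon guidance gene, rose by 0.72 and DIRAS3, a growth-restraining small GTPase, by 0.69; their calls were lost without any single library of 9 or 12 h for NTNG1 and without replicate 1 of either time for DIRAS3. At 12 h neither differed from DMSO by the threshold (adjusted p = 0.372 and 0.675).

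Several of the 90 encode secreted or guidance factors of fibroblasts, or markers of a fibroblast subtype or of pericytes. FGF7, a growth factor for epithelium, rose from 806 and 908 to 1135 and 1265 (log2 change 0.49, adjusted p = 0.000304), CXCL12, a chemokine, from 1126 and 1058 to 1374 and 1304, and HGF, the scatter factor, from 2114 and 2261 to 2589.5 and 2639. No 9 h library of these 3 genes reached a 12 h library. TCF21, a transcription factor of lung lipofibroblasts, rose by 0.38, and ABCC9, the sulfonylurea receptor subunit known from pericytes, by 0.52, with 277 and 278 at 9 h and 389.6 and 407 at 12 h. Calls were lost for CXCL12 without replicate 2 of 9 h or replicate 1 of 12 h, for HGF without replicate 1 of 9 h or either 12 h library, and for TCF21 without replicate 2 of 12 h. Of 15 smooth muscle and pericyte markers 2 were called higher, ABCC9 and KCNJ8 (1 to 3 when any library was left out), the call of KCNJ8 being lost in DESeq2 and without any single library of 9 or 12 h. Over all genes tested 1.08% were called higher, and the median log2 change of the 15 markers was 0.06. The summed level of the 15 was 97064 and 97467 at 9 h and 99383 and 100654 at 12 h. The part of these markers in the changes was not tested.

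Some of the largest increases had no call at 6 h. CSGALNACT1, which starts chondroitin sulfate chains, had 635 and 659.6 normalized counts in DMSO, 559 and 613 at 6 h, 642 and 647 at 9 h and 1032 and 1108 at 12 h. The other 3 groups lay close together and the 12 h libraries stood above them, with a log2 change of 0.73 ± 0.071 (SE, adjusted p = 1.1e-06 in limma) from 9 to 12 h. The difference from the step before passed the threshold too (adjusted p = 0.0264). LURAP1L rose by 0.58, NAALADL2 by 0.54 and TCEA3, a transcription elongation factor gene, by 0.52. TRPC4, a cation channel, went from 75.7 and 81.3 to 111 and 119 after 109 and 114 at 6 h. The calls of LURAP1L, NAALADL2, TCEA3 and TRPC4 were lost when single libraries of 9 or 12 h were left out, for LURAP1L all but replicate 2 of 9 h, for NAALADL2 all but replicate 1 of 9 h, and for TCEA3 and TRPC4 any of the 4.

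Of 111 tested p53 targets, 5 rose and 2 fell between 9 and 12 h, which is 6.31% called beside 4.0% of all genes, so these counts are not particular to the targets. Among 33 tested targets for arrest and feedback, 28 had risen at 6 h, and from 9 to 12 h 1 rose and 2 fell, with a median of 0.02. Among 25 targets for apoptosis and death receptors, 20 had risen at 6 h, and 2 rose and 0 fell from 9 to 12 h in limma, with a median of 0.05. At an unadjusted p under 0.05, 3 of these 25 were lower, and edgeR and DESeq2 called 0 lower and 4 and 3 higher. The same step gave 1 higher of 29 targets for metabolism, redox control and autophagy, 1 higher of 10 p53-linked long non-coding RNAs, and 0 of 14 for DNA repair, of which 3 were lower at an unadjusted p under 0.05 and 0 were called by edgeR or DESeq2. When any library was left out, the arrest targets gave 0 to 1 higher and 0 to 3 lower, and the apoptosis, metabolism and long non-coding lists 2 to 4, 0 to 4 and 0 to 3 higher, with the highest counts without a DMSO library.

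MDM2 had 1882 and 2196 normalized counts in DMSO, 17569 and 15771 at 6 h, 17498 and 17467 at 9 h and 17639 and 17872 at 12 h. All Nutlin-3a libraries were far above DMSO and differed little from each other, with a log2 change of 0.02 ± 0.060 (SE, adjusted p = 0.923 in limma) from 9 to 12 h. CDKN1A had 4954 and 4670.0 in DMSO, 52553 and 54207 at 6 h, 68941 and 69997 at 9 h and 72462 and 70871 at 12 h, with steps of 0.38 from 6 to 9 h and 0.04 from 9 to 12 h. The later step of CDKN1A was the smaller (difference -0.34, adjusted p = 0.0414 in limma). This call was lost without either library of 9 h and without the intensity trend of the variance. BTG2, an antiproliferative p53 target, was at 2372 and 2541 at 9 h and 2225 and 2219.6 at 12 h (adjusted p = 0.256).

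A few targets did move. GDF15, a secreted stress cytokine, had 206 and 186 normalized counts in DMSO, 4587 and 4450.0 at 6 h, 3247 and 3370.0 at 9 h and 2734 and 2629 at 12 h. It was highest at 6 h and lower at each later time, with a log2 change of -0.30 ± 0.059 (SE, adjusted p = 0.0031 in limma) from 9 to 12 h; the call was lost without replicate 2 of 9 h or of 12 h. RPS27L, a ribosomal protein paralog that p53 induces, rose from 5418 and 5744 to 6628 and 7379.8, although reads shared with its near copy RPS27 could be split between them and the call was lost without replicate 1 of 9 h or replicate 2 of 12 h. TP53I3, a quinone oxidoreductase, rose from 2389 and 2501 to 3060.1 and 3168 (log2 change 0.35, adjusted p = 0.000277), and TNFRSF10D, a decoy receptor for TRAIL, from 10374 and 10402 to 12688 and 12583 (log2 change 0.28, adjusted p = 0.000201).

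NOTCH1, a receptor that p53 is known to induce, fell from 2304 and 2147 to 1851 and 1843 (log2 change -0.27, adjusted p = 0.0255). CMBL, a hydrolase, rose from 1434 and 1555 to 1803 and 1765 (log2 change 0.26, adjusted p = 0.0386), after a larger step of 0.84 from 6 to 9 h. NEAT1, the RNA scaffold of paraspeckles, had 2833 and 2673 normalized counts at 6 h, dipped to 1863 and 1859.9 at 9 h and rose to 2151 and 2314 at 12 h (log2 change 0.26, adjusted p = 0.0222). The calls of NOTCH1, CMBL and NEAT1 were each lost without any single library of 9 or 12 h.

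TP53I3 and TNFRSF10D were higher at each later time, with no overlap between neighbouring groups. SULF2, which trims heparan sulfate and is listed here with the extracellular matrix, and CYFIP2, of the actin-regulating WAVE complex, had risen steeply in the step before and did not pass the threshold here. SULF2 went from 92.6 and 93.2 at 6 h to 287 and 291 at 9 h and 386 and 377 at 12 h (log2 change from 9 to 12 h 0.40, adjusted p = 0.158; called by edgeR). CYFIP2 went from 483 and 449 at 6 h to 1198 and 1164 at 9 h and 1455 and 1407 at 12 h (log2 change 0.28, adjusted p = 0.0844; called by edgeR and DESeq2). For both the later step was the smaller, with differences of -1.23 (adjusted p = 0.022) and -1.06 (adjusted p = 0.00163). For SULF2 this difference was lost without any single library of 6, 9 or 12 h, and for CYFIP2 at least without either library of 9 h. Both differences were lost without the intensity trend of the variance.

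**Figure D5:**
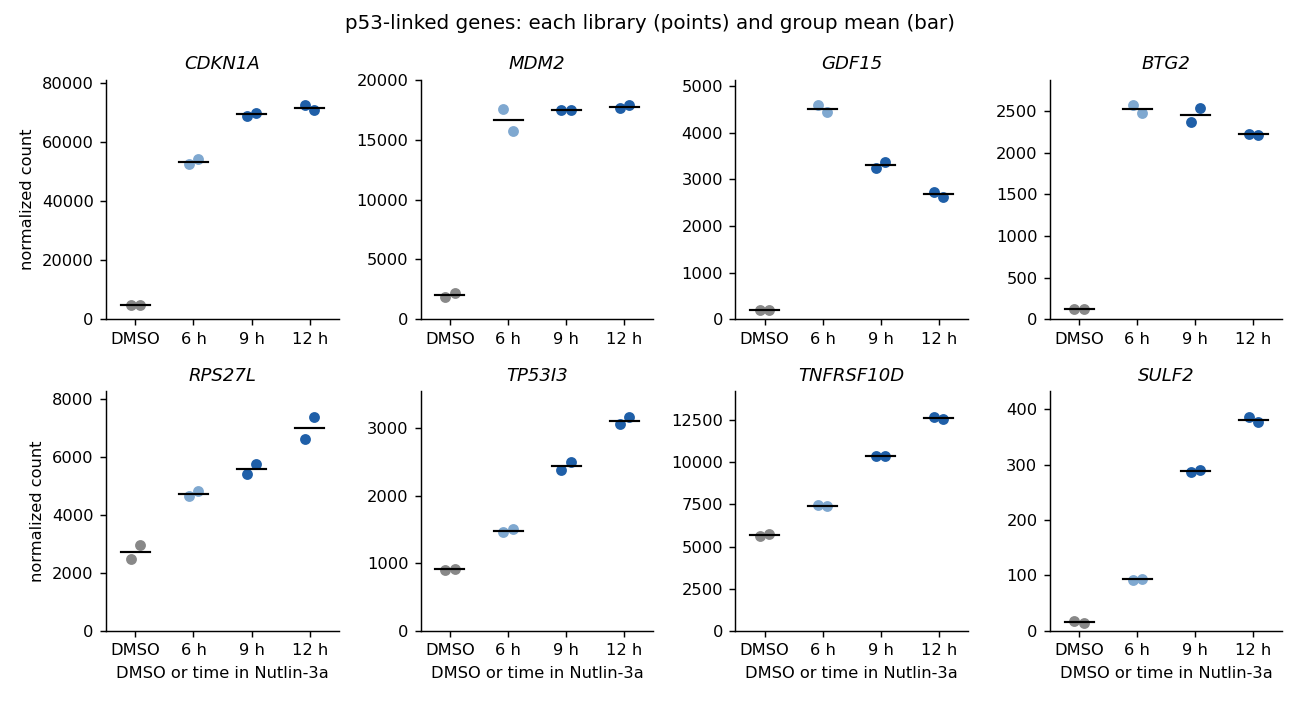
Normalized count (y axis, from 0) of 8 p53-linked genes in each library (points) and the group mean (bar), in DMSO and at 6, 9 and 12 h of Nutlin-3a (x axis). MDM2 and BTG2 hold about the level reached by 6 h, GDF15 falls from its 6 h level, and TP53I3, TNFRSF10D and RPS27L are higher at each later time.

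The size of the later step differed from that of the step before for 127 genes (0.902% of those tested) in limma, 77 with a more positive and 50 with a more negative later step. Of these 127, 28 were also called from 9 to 12 h and 99 were not. Among genes with a mean of at least 50, the largest positive difference after that of CCNE2 was that of PTGS2, the inducible cyclooxygenase, which had 679 and 653 normalized counts at 6 h, 342 and 289.6 at 9 h and 327 and 331 at 12 h, after 252 and 287 in DMSO, so that most of an early rise was gone by 9 h. The difference for PTGS2 was lost without replicate 2 of 9 h. The largest negative difference among such genes was that of ADAMTS15, a matrix protease, with 100.1 and 82.6 at 6 h, 174 and 169.9 at 9 h and 144 and 121 at 12 h. The call for ADAMTS15 was lost without either 9 h library, replicate 2 of 6 h or replicate 2 of 12 h. These counts rest on the 9 h libraries, which enter both steps: without either of them 2 to 4 genes were positive and 0 negative, and without a DMSO library 302 to 311 were positive and 300 to 314 negative. Without a library of 6 h there were 18 positive and 8 to 9 negative, and without a library of 12 h 15 to 20 positive and 5 to 7 negative.

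Of the immediate early and AP-1 genes, 5 of 30 rose and 0 fell in limma, with a median of 0.07. Over all genes tested, 1.08% rose and 2.92% fell. At an unadjusted p under 0.05, 1 of the 30 was lower, and edgeR and DESeq2 called 0 lower and 5 and 4 higher. Beside NR4A2 and NR4A1 the 5 risers were FOSL2, an AP-1 subunit, at 0.26, and the differentiation inhibitors ID1 and ID2 at 0.23 and 0.21. The calls of ID1 and ID2 were lost without any single library of 9 or 12 h. That of FOSL2 was lost without replicate 2 of 9 h or either 12 h library. The count was 1 to 6 when any library was left out, lowest without replicate 2 of 9 h. Of 33 secreted inflammatory and senescence-associated factors 4 rose (FGF7, CXCL12, HGF and the cytokine IL11) and 1 fell. The call of IL11 was lost without the intensity trend and with quantile normalization. It was also lost without either library of 6 h, replicate 2 of 9 h or either library of 12 h. The faller was ANGPTL4, a lipase inhibitor, from 1071 and 938 to 755 and 686 (log2 change -0.48, adjusted p = 0.000781) after 2213 and 2249 at 6 h. The call of ANGPTL4 was lost without replicate 1 of 9 h or replicate 2 of 12 h, and the 4 risers became 1 to 8, lowest without replicate 1 of 12 h and highest without replicate 1 of DMSO.

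Among genes of metabolism, HK2, the hexokinase of proliferating cells, fell from 3174 and 3093 to 2451 and 2417 (log2 change -0.36, adjusted p = 6.7e-05), 1 of 4 fallers among 37 hypoxia and glycolysis genes. SCD, the stearoyl-CoA desaturase, fell from 10262 and 10487 to 8075 and 8128 (log2 change -0.36, adjusted p = 4.12e-05), 1 of 2 fallers among 33 cholesterol and lipid genes. For both the 12 h libraries were the lowest of all 8. NPC1, the cholesterol exporter of the lysosome, fell by 0.34 on the log2 scale. Over all genes tested, 2.92% were called lower. The 4 became 1 to 7 and the 2 became 1 to 8 when any library was left out, lowest without replicate 1 of 9 h and highest without a DMSO library.

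Factors that process RNA split in 2 directions. SRSF5 rose by 0.35 (adjusted p = 0.000657), DDX17 by 0.27 and DDX5 by 0.22, while SRSF3 changed by -0.32 (adjusted p = 0.000471), SRSF7 by -0.25 and TRA2B by -0.18, so that 3 of 15 tested members rose and 3 fell. SRSF5, a splicing factor of the SR family, had 1689.8 and 1839.8 at 9 h and 2153 and 2333 at 12 h. SRSF3, of the same family, had 8159 and 8205 at 9 h and 6466 and 6663 at 12 h, and neither gene's times overlapped. These role members were chosen after their values were seen, and over all genes tested 1.08% rose and 2.92% fell.

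The counts of the remaining lists are given beside the 4.0% called among all genes, and nothing is read from a share near it. Of 50 ribosomal protein genes 0 were called in limma, edgeR or DESeq2, with 1 lower at an unadjusted p under 0.05 and a median of 0.00. Of 19 NF-kB subunits and feedback genes 0 were called by the 3 tools, with 4 higher at an unadjusted p under 0.05, and of 33 interferon-stimulated genes 0 were called, with 3 higher and 3 lower. Of 22 clock genes 3 were called (13.6%). TEF, a clock output factor, rose by 0.44, and ARNTL, the core clock subunit BMAL1, and TSC22D3, a glucocorticoid target, changed by -0.24 and -0.30; DESeq2 called neither of the last pair, and each of the 3 calls was lost without any single library of 9 or 12 h. Of 45 extracellular matrix genes 2 rose and 1 fell (6.67%), counts that became 0 to 8 and 0 to 2 when any library was left out, highest without replicate 1 of DMSO.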

How the data were processed

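Polyadenylated RNA of 8 IMR90 libraries was sequenced after a library preparation that keeps strand, per the labels' protocols. The authors deposited a table of normalized signal, gene counts scaled by a factor per library, as the values show; STAR, DESeq2 and hg19 are named in the submitters' processing notes, without versions. Which program counted reads, whether it used strand and on which gene models is not given in the sources used here. Dividing each column by the value of 1 read gave whole reads for 100% of values at a tolerance of 1e-06. Entries for reads not assigned to a gene (28.2 to 29.1% of each library) were left out. The authors' own comparison tables hold no test of 12 h against 9 h and were not used.

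Values entered limma 3.58.1 (R 4.3.3) as log2(value + 1), with a variance trend on intensity and all 4 groups in a single fit for the shared spread, on genes with at least 10 in 2 of the 8 libraries. Fold changes on this scale understate those of low genes. Benjamini-Hochberg adjustment ran over all genes with a threshold of 0.05. The slope change is the step from 9 to 12 h minus the step from 6 to 9 h. edgeR 4.0.16 (quasi-likelihood) and DESeq2 1.42.0 on the recovered reads, other scalings, pseudocounts and filters, a replicate block and the omission of each library were alternatives. The scripts were tested on simulated data.

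Genes were named by a rule. Among called genes whose mean reached 50 and whose groups did not overlap, it took the 12 largest changes each way. Among called slope changes of genes whose mean reached 50, it took the 4 largest each way. Without a filter on mean or overlap, it took the 6 largest reversals of the 6 h change each way. From each list came up to 4 members by p and up to 2 against its majority, and fixed genes were added. Other genes named, such as further role members, were chosen after their values were seen. The question, the members and the lists were chosen with earlier results of these data known. Promoters came from RefSeq on GRCh38.p14, whereas the notes name hg19, so no coordinate was joined to the counts other than by gene symbol. Same-numbered libraries were not treated as pairs.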

Additional observations from a re-analysis of the deposited data

Results flagged for a closer look

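Among genes with a mean of at least 50 normalized counts whose step from 9 to 12 h differed from the step from 6 to 9 h in limma, the 4 with the largest difference in each direction are given; both steps use the 9 h libraries. The difference (later step minus earlier step, log2) was 1.45 for CCNE2 (steps -1.48 and -0.04), 1.14 for PTGS2 (-1.08 and 0.06) and 1.13 for ZNF367 (-1.42 and -0.29), 3 genes whose later steps did not pass the threshold. For TRPC4 it was 1.05 (-0.50 and 0.55), a dip at 9 h alone: its 6 h and 12 h libraries overlapped in level. In the other direction, the difference was -1.29 for ADAMTS15 (0.91 and -0.38), -1.23 for SULF2 (1.63 and 0.40), -1.10 for PDE7B (1.75 and 0.65) and -1.07 for the unnamed locus LOC101928841 (0.89 and -0.18). None of the 8 passed without the intensity trend of the variance, and each lost its call without at least 1 library of 9 h. The differences of TRPC4 and LOC101928841 were also lost in DESeq2 and without any single library of 6, 9 or 12 h. That of TRPC4 was lost with a replicate block too, and that of LOC101928841 with quantile normalization.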

How the results depend on the processing

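With 2 libraries a time, the calls depended most on how the spread was estimated. The main counts were 152 higher and 411 lower from 9 to 12 h, and 77 positive and 50 negative slope changes. Fitting the 9 and 12 h libraries alone gave 529 higher and 858 lower, and the Nutlin-3a libraries alone 445 and 813, with 306 and 318 slope changes. Without the intensity trend there were 30 and 144, with 0 and 0 slope changes. Quantile normalization gave 48 and 29 slope changes. When each library was left out in turn, the ranges were 42 to 446 higher, 213 to 825 lower, 2 to 311 positive and 0 to 314 negative. The fit on 9 and 12 h alone gives no slope change. edgeR gave 186 and 386, with 152 and 381 of the calls shared, and DESeq2 123 and 326, with 117 and 323 shared. Other scalings, pseudocounts and filters kept these 4 counts within 1.5 times, apart from quantile normalization of the slope change. Among called genes 27.0% were higher, against 17.2% without the trend and 38.1% with 9 and 12 h alone.

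Replicate numbers did not pair the libraries: deviations from the group means correlated at 0.0685 between 9 and 12 h and at -0.152 between DMSO and 6 h over 11461 genes. The fit with a replicate block gave 145 higher and 405 lower, with 73 and 44 slope changes. No called change of a named gene reversed its sign in any alternative. Depth limits low genes: 3 reads were worth 2.46 to 3.75 normalized counts.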

Other observations

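The families below were chosen after the values were seen, are counted with the same limma calls and carry no test as families. Each count stands beside a share over all genes tested of 1.08% called higher and 2.92% called lower. Of 13 lamins and membrane proteins that bind the nuclear lamina, 8 fell from 9 to 12 h (LBR, LMNB1, LMNB2, NEMP1, SUN2, SYNE2, TMEM201 and TMPO), with a median log2 change of -0.26. LBR, the lamin B receptor of the inner nuclear membrane, went from 1157 and 1184 to 941 and 1021 normalized counts (log2 change -0.26, adjusted p = 0.0243), without overlap of the times. Of 25 nucleoporins 5 fell (NDC1, NUP188, NUP205, NUP50 and NUP85) and 24 of the 25 changes were negative, with a median of -0.11, beside 52.4% negative changes and a median of -0.01 over all genes. Of 16 Fanconi anaemia genes, which repair crosslinked DNA, BRIP1, FANCA, FANCD2, FANCI and UBE2T fell.

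Of 19 cytosolic aminoacyl-tRNA synthetases, which charge tRNAs with amino acids, 6 fell (AARS, CARS, MARS, NARS, TARS and YARS) and 17 of the 19 changes were negative, with a median of -0.06. YARS, which charges tyrosine, had 4689 and 4507 normalized counts in DMSO, 5239.6 and 5607 at 6 h, 4931 and 4822 at 9 h and 4030.0 and 3931 at 12 h, with its highest libraries at 6 h.

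Among 13 class 3 semaphorins and their receptors, cues that steer axons and vessels, NRP1, SEMA3A, SEMA3B and SEMA3C rose and PLXNA2 fell. SEMA3A went from 4729.9 and 4769 to 5794 and 5894 (log2 change 0.30, adjusted p = 0.000239) and SEMA3C from 3644 and 3565 to 4424 and 4495 (log2 change 0.31, adjusted p = 0.000355), both without overlap. Of 43 potassium channel genes KCNJ8, KCNK2 and KCNMA1 rose and KCNG1 and KCNH1 fell, and of 18 HOX genes HOXB3 and HOXB4 rose, with medians of 0.09 and 0.13.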
